A study of Mus musculus with 20 samples.

Results

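The growth course of colonoids that lack TNFR2 was followed within its own genotype, by comparing its late days with its early days after passage. Of the 20 libraries of the series, 10 were from Tnfr2-/- colonoids, and they were taken by their genotype label, with 4 libraries of days 5 and 7 (late) set against 6 libraries of days 1, 2 and 3 (early). Tnfr2, the gene symbol of which is Tnfrsf1b, encodes 1 of the receptors of tumour necrosis factor (TNF), and the mice were whole-body knockouts, so epithelial and any other cells of the culture carried the same deletion. Colonic crypts of wildtype or Tnfr2-/- mice were embedded in Matrigel, fed with IntestiCult medium, passaged 5 times and then, per the labels, filtered before seeding. The labels name no added agent for any group. Each day had 1 library from each of 2 cultures, M1 and M2, which are taken here from the labels' numbering as 1 mouse each, so the 5 libraries of a culture are repeated samples of it, and p-values measure the spread among these libraries. The age of the mice is not used here. The 10 wildtype libraries, on the same days and also from cultures M1 and M2 of their own genotype, served as a reference at the end.

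A colonoid starts from a crypt fragment or a few crypt cells and grows as a closed epithelial sphere. Stem cells at the crypt base divide, their progeny divide further as progenitors, and cells then leave the cell cycle and mature into absorptive colonocytes or into secretory goblet, deep secretory and enteroendocrine cells. After passage, fragments or single cells re-form spheres, and maturation is usually weaker in cells that are still dividing. TNF signals through both TNFR1 and TNFR2 to NF-kB, a transcription factor that drives cytokines, chemokines and its own inhibitors. Cultures of crypts can also carry stromal cells such as fibroblasts, which make collagens and other matrix proteins.

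Values are read here as TPM (an abundance per transcript length, relative to the whole library) after division by the library's size factor, summed over the transcripts of a gene, and they are called units below. Differences are on the log2(value + 1) scale, late minus early with culture as a block, with the standard error (SE) after ±, and a gene was called at a Benjamini-Hochberg adjusted p under 0.05 over all genes tested. A log2 difference of 1 therefore stands for a doubling of the value plus 1 unit, which understates the change of low genes. The knockout libraries summed to between 916071 and 1110233 units, held 13007 to 13463 genes at 1 unit or more, and gave 7.61 to 12.03% of their units to their 10 highest genes. Libraries of the same day correlated at a Pearson r of 0.9477 to 0.9542 across genes, which are not independent replicates. On the main axis of a principal component analysis (31.3% of variance), early libraries scored -37.11 to -12.95 and late libraries 32.19 to 50.24, and no library stood apart from its phase.

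Tnfrsf1b itself was checked first. Its transcripts were still counted in the knockout, at 2.71 to 5.52 (median 3.88) units in the early libraries and at 8.08 and 7.59 on day 5 and 7.84 and 11.4 on day 7, against 11.1 to 21.9 units in the 10 wildtype libraries. In 9 of the 10 knockout libraries the level was below the lowest wildtype library, and the exception was the day 7 library of culture M2. Within the knockout, the late and early libraries did not overlap (log2 difference 1.02 ± 0.21, adjusted p = 0.00818). The sum over transcripts does not show whether a full-length messenger RNA was made, and the exons removed in the knockout were not looked up here.

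Epithelial markers were high in every library, and fibroblast markers were present as well. All 14 epithelial markers were above a mean of 1 unit, and they summed to between 15895 and 22312 units in the early libraries and between 16047 and 21725 in the late ones. Markers of immune cells summed to 3.23 to 12.04 units in the early and 6.71 to 10.4 in the late libraries, with 10 of 12 under a mean of 1 unit and Tyrobp at 0 in every library. Endothelial markers summed to 2.41 to 6.90 and 5.99 to 10.2 units, with Emcn at 0 throughout, and neural and glial markers to 0.106 to 2.23 and 0.343 to 2.00 units. Fibroblast markers were of another order, at 3274 to 4885 units in the early and 3883 to 8816 units in the late libraries. In these bulk samples, a change in the number of cells of a type and a change in RNA per cell cannot be told apart.

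Late and early knockout colonoids differed at 2647 of 13417 genes tested, which is 19.7%. Of these, 1477 genes were higher late (11.0% of genes tested) and 1170 were lower late (8.72%), so that 55.8% of the calls were higher. With every library scaled to the same sum, 1082 genes were higher and 1488 lower, and 42.1% of 2570 calls were higher. The balance of rises and falls therefore turned with the scaling, while the median difference over all genes was 0.025 as deposited and -0.055 after equal scaling. The rises were the larger ones: 587 of the genes called higher rose by more than 1 on the log2 scale and 100 by more than 2, against 267 and 15 among the falls. Of the genes called, 2646 had the same sign in both cultures. All late values lay above all early values for 1121 of the genes called higher, and all lay below for 863 of those called lower. Of the rises, 569 had their highest day mean on day 5 and 908 on day 7. Of the falls, 874 had their lowest day mean on day 7 and 296 on day 5. Leaving out day 7 left 847 calls (508 higher and 339 lower), and leaving out day 2 left 1248.

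**Figure D1:**
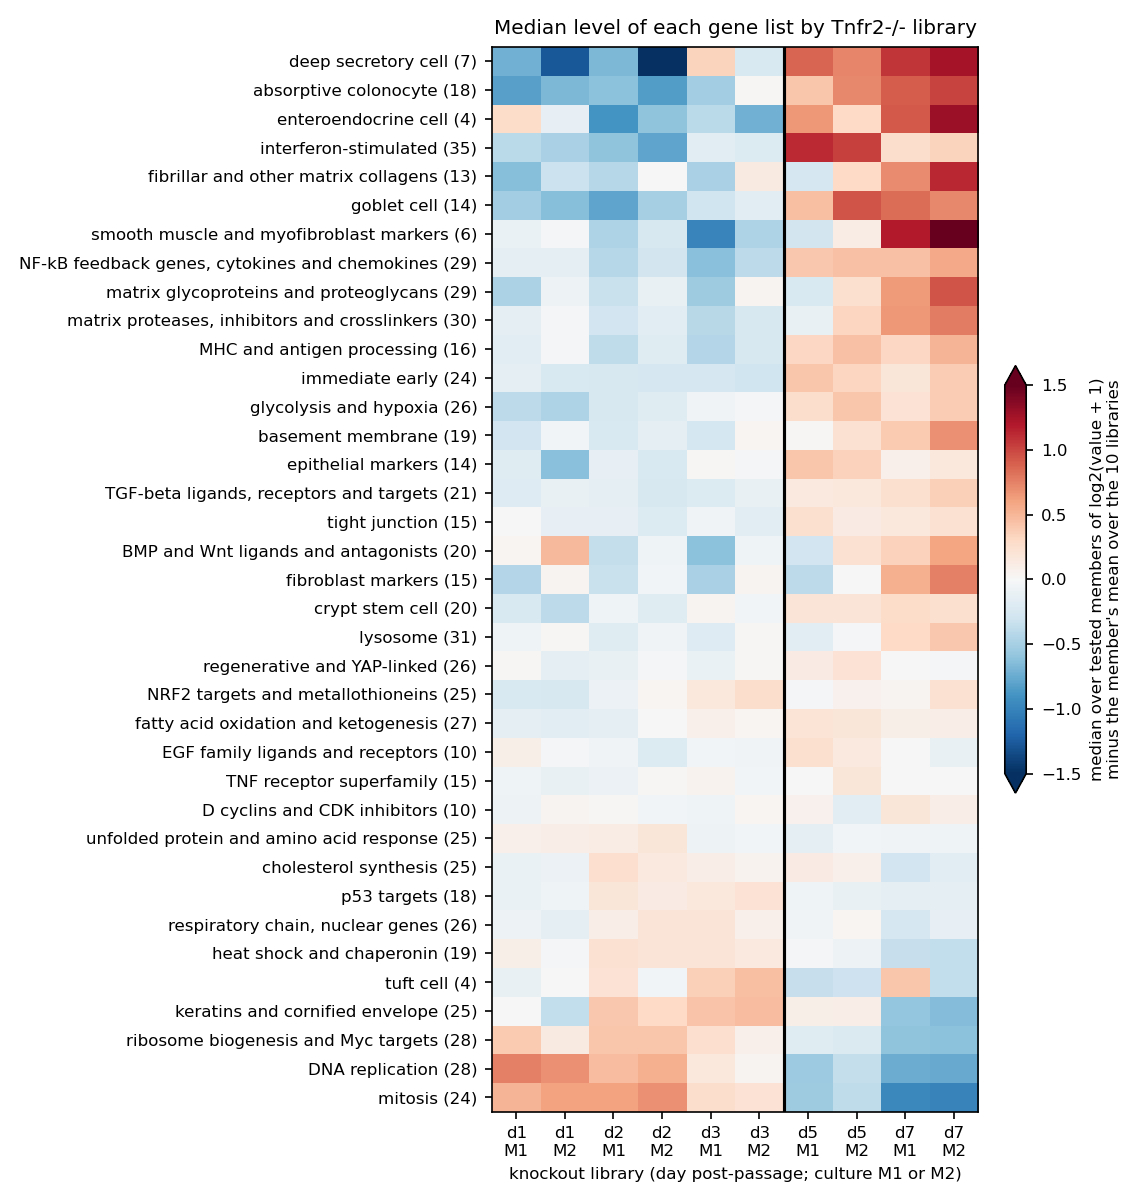
Median level of each gene list (rows, with the number of members tested) in each Tnfr2-/- library (columns, early days to the left of the black line), as log2(value + 1) minus each member's mean over the 10 libraries (colour). The mitosis list runs from 0.219 to 0.681 in the early and from -1.002 to -0.38 in the late libraries, and the interferon-stimulated list is highest on day 5, at 1.122 and 1.027.

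The genes of cell division fell together. All 24 tested genes of the mitosis list were lower late, with a median difference of -1.15, against 0.025 over all genes tested and 8.72% of all genes called lower. Of 28 DNA replication genes, 24 were lower and none higher (median -1.05). The falls came in steps: the median mitosis gene stood at 0.00, -0.38, -1.03 and -1.53 relative to day 1 on days 2, 3, 5 and 7, and the median replication gene at -0.27, -0.63, -1.22 and -1.54. Without day 7, 17 mitosis genes and 11 replication genes were still called.

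Cdc20, the activator of the anaphase-promoting complex, lay at 51 to 86.3 (median 57) units in the early libraries and at 24.7 and 28.5 on day 5 and 10.5 and 17.5 on day 7 (log2 difference -1.68 ± 0.25, adjusted p = 0.00157). Ube2c, the ubiquitin-conjugating enzyme that works with that complex, lay at 111 to 165 (median 141) units early and at 49.4 and 56.5 on day 5 and 36.1 and 36.2 on day 7 (log2 difference -1.65 ± 0.16, adjusted p = 0.000222). In both genes the 4 late libraries were below all 6 early ones, and day 7 was below day 5. Birc5, the survivin subunit of the chromosomal passenger complex, fell by a similar amount (log2 difference -1.66 ± 0.25, adjusted p = 0.00175), as did Ccnb1, cyclin B1 (log2 difference -1.60 ± 0.20, adjusted p = 0.000757). Mki67, the marker of cycling cells, lay at 48.5 to 62.1 (median 51.8) units and then at 34.6 and 34.2 on day 5 and 21.9 and 19.1 on day 7, a smaller fall (log2 difference -0.99 ± 0.18, adjusted p = 0.00397). Among the replication genes, Mcm5 of the replicative helicase went from 30.3 to 63.2 (median 49.9) units to 15.6 and 21 on day 5 and 13.1 and 10.1 on day 7 (log2 difference -1.64 ± 0.24, adjusted p = 0.00139). Rrm2, the regulated subunit of ribonucleotide reductase that supplies deoxynucleotides, went from 82.8 to 138 (median 114) units to 46.6 and 40.5 on day 5 and 28.9 and 27.5 on day 7 (log2 difference -1.60 ± 0.19, adjusted p = 0.000668). The late values of both lay below every early value.

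Of 10 cyclins and inhibitors of the G1 phase, 3 were higher and 2 lower, beside 11.0% and 8.72% of all genes, with 1 lower without day 2 or day 7. Ccnd1, cyclin D1, lay at 279 to 461 (median 379) units early, and was at 247 and 243 on day 5 and 118 and 114 on day 7 (log2 difference -1.12 ± 0.25, adjusted p = 0.0115; 0.111 without day 7). The inhibitor genes Cdkn1c (p57; log2 difference 1.24 ± 0.20, adjusted p = 0.00233) and Cdkn2b (p15; log2 difference 0.83 ± 0.10, adjusted p = 0.000539) were higher late, whereas Cdkn2c (p18) was lower (log2 difference -1.36 ± 0.20, adjusted p = 0.00141).

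Promoters of mitotic genes are known for CCAAT boxes bound by the factor NF-Y and for the cell cycle homology element TTTGAA bound by the DREAM complex. In RefSeq promoter windows, which run from 250 bases before to 50 bases after the start of a gene (build GRCm38.p6), CCAAT was found on either strand in 19 of the 21 mitosis genes with a window (90.5%), against 43.1% of the 9909 tested genes with a window. TTTGAA was found in 16 of the 21 (76.2%), against 14.3% of all tested genes. The windows of Cdc20 and Ube2c are shown because each holds both motifs, and capitals mark CCAAT and TTTGAA on either strand. The Cdc20 window (chr4:118437294-118437593, minus strand; the gene spans chr4:118432901-118437352, minus strand) holds CCAAT from bases 198 and 243 and TTTGAA from base 233. The Ube2c window (chr2:164769679-164769978, plus strand; the gene spans chr2:164769898-164778822, plus strand) holds 6 CCAAT matches, 3 on each strand and some of them overlapping, and TTTGAA on the opposite strand from base 222.
Cdc20: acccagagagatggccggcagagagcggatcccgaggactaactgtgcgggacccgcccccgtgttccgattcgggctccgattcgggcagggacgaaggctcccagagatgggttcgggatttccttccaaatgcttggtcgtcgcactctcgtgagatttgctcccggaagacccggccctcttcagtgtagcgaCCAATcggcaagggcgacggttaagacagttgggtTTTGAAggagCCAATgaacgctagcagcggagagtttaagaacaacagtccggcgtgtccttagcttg
Ube2c: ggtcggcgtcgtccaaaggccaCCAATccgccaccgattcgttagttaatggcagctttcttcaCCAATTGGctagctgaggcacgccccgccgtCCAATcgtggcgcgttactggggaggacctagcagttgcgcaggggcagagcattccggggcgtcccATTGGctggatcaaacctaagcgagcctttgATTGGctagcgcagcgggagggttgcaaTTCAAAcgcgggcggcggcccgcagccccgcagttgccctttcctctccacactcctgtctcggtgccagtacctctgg
For the replication genes, the E2F-type words TTTCCCGC and TTTGGCGC were found in 3 (13.0%) and 5 (21.7%) of 23 windows, against 2.38% and 1.11% of all tested genes. A match is only a match of letters, and no binding was measured.

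Genes of ribosome biogenesis were lower late. Of 28 genes of ribosome biogenesis and of the Myc program, 21 were lower late, beside 8.72% of all genes, and none higher (median -0.64), although without day 7 only 6 and without day 2 only 11 were called. Nop56, a core protein of the box C/D particles that modify ribosomal RNA, lay at 216 to 332 (median 291) units early and at 148 and 165 on day 5 and 118 and 125 on day 7 (log2 difference -1.01 ± 0.14, adjusted p = 0.0012). Srm, the spermidine synthase gene, went from 86.2 to 129.6 (median 104) units to 55.5 and 61.9 on day 5 and 39.8 and 48.1 on day 7 (log2 difference -1.04 ± 0.15, adjusted p = 0.00142). In both, no late library reached the lowest early one. Nop56 shares exons with small nucleolar RNA genes on its own strand, so reads of those cannot be separated from it. Myc itself, at 101 to 137 (median 117) units early and at 105 and 99.5 on day 5 and 57.7 and 62.7 on day 7, was lower by a margin that 8 of the 10 fits without 1 library did not keep (log2 difference -0.57 ± 0.18, adjusted p = 0.0463; up to 0.143).

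Of 19 chaperone genes, 8 were lower (42.1%, against 8.72% of all genes) and 1 higher (5.26%, against 11.0%), with a median of -0.35, and 3 were lower without day 7 and 4 without day 2. Without the day 2 or day 7 library of M1 or the day 7 library of M2, 4 were lower, and without the day 5 library of M1 or the day 2 library of M2, 5. The lower ones were the cytosolic Hsp90aa1 and Hsph1, the mitochondrial pair Hspd1 and Hspe1, and 4 subunits of the CCT chaperonin that folds actin and tubulin (Cct2, Cct3, Cct7 and Cct8). Hsph1 lay at 59.7 to 88.8 (median 65.8) units early and at 42.9 and 34.1 on day 5 and 33.1 and 38 on day 7 (log2 difference -0.92 ± 0.14, adjusted p = 0.00191). Hspd1 lay at 347 to 480.4 (median 423) units early and at 263 and 282 on day 5 and 224 and 173 on day 7 (log2 difference -0.84 ± 0.15, adjusted p = 0.00327). Bag3, a co-chaperone of Hsp70, was the exception that was higher late (log2 difference 0.44 ± 0.10, adjusted p = 0.0121), but not when libraries were scaled to equal sums (adjusted p = 0.0711). Genes of the unfolded protein response were lower in 3 of 25 cases (Calr, Sdf2l1 and Manf), a share near the 8.72% of all genes, and in 1 without the day 5 library of M1 or the day 7 library of M2. The count was 1 without day 2 or day 5, 6 without day 3 and 0 without day 7. Manf lost its call without the day 5 (0.0523) or day 7 (0.0536) library of M1 or the day 7 library of M2 (0.0622). Of the named genes, Sdf2l1, an endoplasmic reticulum chaperone, showed the clearest fall (log2 difference -0.86 ± 0.16, adjusted p = 0.0045; 0.0689 without day 7).

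**Figure D2:**
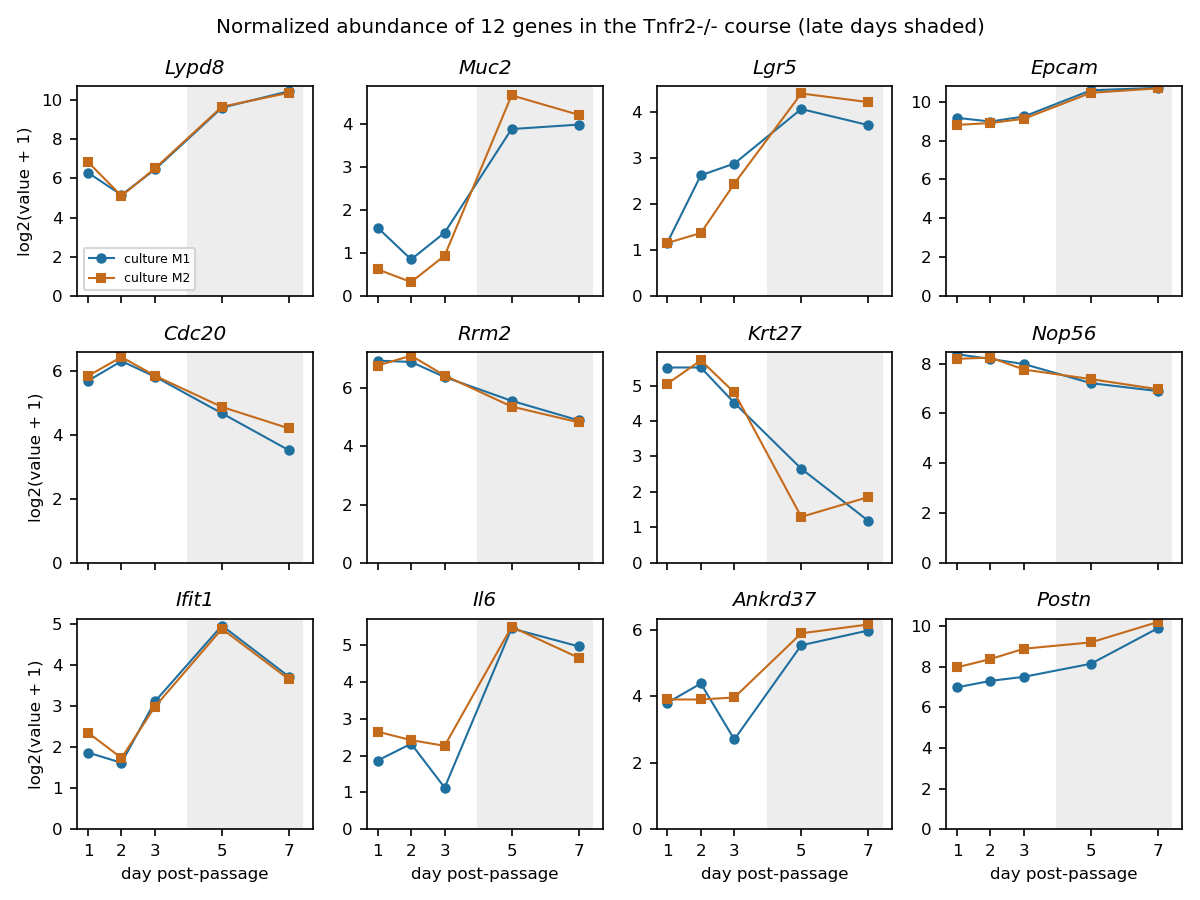
Level of 12 genes, as log2(value + 1), by day post-passage in Tnfr2-/- colonoids, with 1 point for each library, a line for each culture (M1 and M2) and the late days shaded. Cdc20, Rrm2, Nop56 and Krt27 go down and the other genes go up between the early and the late days, and Ifit1 and Il6 are higher on day 5 than on day 7.

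The steepest falls among the named genes were those of keratins. Krt27, a type I keratin known from the inner root sheath of hair, lay at 21.8 to 51.4 (median 38.4) units early and at 5.29 and 1.45 on day 5 and 1.27 and 2.61 on day 7 (log2 difference -3.44 ± 0.32, adjusted p = 0.000208). Krt90, a type II keratin, lay at 22.1 to 37.9 (median 30.4) units early and at 5.71 and 3.57 on day 5 and 0.737 and 0.755 on day 7 (log2 difference -3.31 ± 0.36, adjusted p = 0.000405). Neither gene's late range touched its early range. Over the list of keratins and cornified envelope genes, 7 of 25 were lower (Krt4, Krt7, Krt27, Krt90, Cnfn, Ppl and Tgm1; 28.0%, against 8.72% of all genes) and 3 higher (Krt23, Sprr1a and Dsc2, a share near the 11.0% of all genes), with a median of -0.47. The lower count was 4 without the day 7 library of M1 or of M2 and 3 without day 2 or day 7, and the higher count was 6 without day 3. Cnfn, cornifelin, lay at 1.91 to 10.5 (median 8.35) units early and was listed at 0 in 3 of the 4 late libraries and at 1.51 in the day 5 library of M2 (log2 difference -2.64 ± 0.43, adjusted p = 0.00246). Krt23 rose (log2 difference 1.07 ± 0.14, adjusted p = 0.000951), as did the desmosomal cadherin gene Dsc2 (log2 difference 1.10 ± 0.14, adjusted p = 0.000723). Krt7 was far more abundant, at 1747 to 2867 (median 2525) units early and 1983 and 1812 on day 5 and 1087 and 1258 on day 7, and its call (log2 difference -0.68 ± 0.20, adjusted p = 0.0355) was lost in 6 of 10 fits without 1 library, up to 0.114.

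Of the 15 largest falls named (mean of at least 10 units in the higher phase), the other 13, among them Cdc20, came from several families. Aldh3a1, an aldehyde dehydrogenase, lay at 6.66 to 35.3 (median 13.2) units early and at 2.02 and 0.967 on day 5 and 1.98 and 3.19 on day 7 (log2 difference -2.43 ± 0.34, adjusted p = 0.00128). Chtf18, the clamp loader subunit for sister chromatid cohesion, lay at 11.7 to 23.7 (median 12.9) units early and at 4.71 and 2.9 on day 5 and 2.41 and 2.33 on day 7 (log2 difference -1.91 ± 0.22, adjusted p = 0.000539). Nup210, a transmembrane nucleoporin, fell by 1.80 on the log2 scale (adjusted p = 0.00267), and Aunip, a partner of Aurora kinase A, by 1.99 (adjusted p = 0.0023). Myl7, known as an atrial myosin light chain, fell by 1.94 (adjusted p = 0.00209), Pbp2 by 2.13 (adjusted p = 0.000617) and Il5ra, a subunit of the interleukin 5 receptor, by 2.09 (adjusted p = 0.00521). In each of these 7 genes the late libraries lay below all early ones. Cd59b, Plac9b and Pcdhgc4, with falls of 2.48, 1.99 and 2.94, have close copies or share exons with neighbours, so their reads could have been divided between copies and their values are uncertain. Cbs, which makes cystathionine from homocysteine, and the adaptor gene Dok2 overlapped between phases. The call of Cbs (log2 difference -1.92 ± 0.50, adjusted p = 0.0214) was lost without the day 5 library of M1 (0.0559), the day 7 library of M1 (0.0757) or the day 7 library of M2 (0.0654), and that of Dok2 (log2 difference -1.66 ± 0.49, adjusted p = 0.0367) in 8 of the 10 such fits, up to 0.12.

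The absorptive and deep secretory lists had the highest medians of the lists made for this comparison. Of 18 tested absorptive colonocyte genes, 9 were higher and none lower (median 1.44). Of 14 goblet cell genes, 6 were higher (median 0.90), and of 7 deep secretory genes, 4 were higher (median 1.73), in neither case with any lower. For comparison, 11.0% of all genes were called higher and the median over all genes was 0.025. Of 30, 19 and 12 genes listed for these 3 cell types, the rest stayed under a mean of 1 unit. A gene near 0 early could pass this filter only by being high late, so these medians and counts can lean upward. Summed over all listed genes, the absorptive list lay at 593.5 to 805.7 units early and 2031 to 2731 late. The goblet sums were 80.5 to 157.1 and 306.8 to 415.7 units, and the deep secretory sums 105.6 to 191.5 and 196.9 to 251.5. Without day 7, 5, 3 and 2 genes were still called.

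Lypd8, a secreted protein that keeps flagellated bacteria off the colonic surface, lay at 33.5 to 113 (median 82.2) units early and at 776 and 802 on day 5 and 1386 and 1313 on day 7 (log2 difference 3.95 ± 0.36, adjusted p = 0.000199; chr11:58379043-58390728, plus strand). Muc13, a transmembrane mucin, lay at 7.28 to 28.5 (median 12.4) units early and at 207 and 183 on day 5 and 243 and 248 on day 7 (log2 difference 3.86 ± 0.34, adjusted p = 0.000181; chr16:33794037-33819934, plus strand). The lowest late library was above the highest early library by a wide margin in both. Muc2, the gel-forming mucin of goblet cells, lay at 0.259 to 2.02 (median 0.868) units early and at 13.8 and 24.4 on day 5 and 14.8 and 17.6 on day 7 (log2 difference 3.21 ± 0.29, adjusted p = 0.000186; chr7:141690340-141754693, plus strand). Tff3, the trefoil factor that goblet cells secrete with mucin, lay at 0 to 10.9 (median 4.23) units early and at 29.6 and 73.4 on day 5 and 90.7 and 114 on day 7 (log2 difference 3.93 ± 0.66, adjusted p = 0.00294), though without day 7 its adjusted p was 0.0595. The goblet cell gene Spink4 rose as well (log2 difference 3.33 ± 0.62, adjusted p = 0.00479; 0.0682 without day 7), and Agr2, a disulfide isomerase needed for mucin assembly, was highest on day 5 at 103 and 110.3 units (log2 difference 2.68 ± 0.58, adjusted p = 0.00925; 0.0885 without day 5). These goblet genes thus rose, with Tff3, Spink4 and Agr2 resting in part on 1 late day.

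Sval1 led the deep secretory list, from 0 to 2.43 (median 0.574) units early to 19.7 and 18.9 on day 5 and 35.1 and 36 on day 7 (log2 difference 3.998 ± 0.44, adjusted p = 0.000438), and its phases did not overlap. Ang4, an antimicrobial ribonuclease of Paneth and deep secretory cells, was at 0 in most early libraries and at 5.03 and 2.89 on day 5 and 26.1 and 27.7 on day 7 (log2 difference 3.03 ± 0.62, adjusted p = 0.00723; 0.0851 without day 7). Reg4, the usual marker of deep secretory cells, lay at 0 to 4.56 (median 0.308) units early and at 4.99 and 8.96 on day 5 and 7.32 and 3.22 on day 7. Its ranges overlapped and its call (log2 difference 1.94 ± 0.53, adjusted p = 0.0267) was lost in 4 of 10 fits without 1 library: those without the day 2 (0.0557) or day 7 (0.0753) library of M1 and those without the day 2 (0.0582) or day 5 (0.082) library of M2.

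Only 4 of 18 enteroendocrine genes were high enough to test, and Pyy and Chgb were called, beside 11.0% of all genes called higher. Pyy, which encodes the gut hormone peptide YY, lay at 2.68 to 14.3 (median 6.44) units early and at 34.8 and 16.4 on day 5 and 107 and 90.5 on day 7 (log2 difference 2.77 ± 0.47, adjusted p = 0.00303). Chgb, chromogranin B of secretory granules, rose by 1.61 (adjusted p = 0.00908; 0.128 without day 7). Both were highest on day 7 in each culture. The sum over all 18 listed genes showed no steady rise. It was 487.4 and 447.7 units on day 1, 142.5 to 230.1 on days 2 and 3, 478.1 and 449.8 on day 5 and 485.9 and 639.4 on day 7. None of the 4 tested tuft cell genes was called (median -0.35, 14 listed). Dclk1 lay at 11.9 to 18.2 (median 12.7) units early and at 8.7 and 13.8 on day 5 and 23.9 and 22.3 on day 7, and Avil at 3.19 to 9.64 (median 3.85) early and at 1.56 and 2.08 on day 5 and 4.8 and 2 on day 7.

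Of 20 stem cell genes, 5 were called higher late (Lgr5, Prom1, Sox9, Slc12a2 and Mex3a; 25.0%, against 11.0% of all genes; median 0.31) and 15 were not called. The count was 3 without the day 5 library of M1 or without day 1, 2 or 5, and 2 without day 7. Lgr5, the receptor of R-spondins that marks crypt base stem cells, lay at 1.23 to 6.33 (median 3) units early and at 15.6 and 20 on day 5 and 12.1 and 17.4 on day 7 (log2 difference 2.15 ± 0.38, adjusted p = 0.00377; chr10:115450311-115587780, minus strand). All 4 late libraries exceeded the highest early one. Mex3a, an RNA-binding protein of slowly cycling stem cells, lay at 2.84 to 3.22 (median 2.94) units early and at 6.16 and 5.2 on day 5 and 6.09 and 8.23 on day 7 (log2 difference 0.88 ± 0.18, adjusted p = 0.00717; 0.0928 without day 7).

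Of 14 epithelial markers, 6 were higher (Epcam, Cdh1, Cldn4, Cdx1, Elf3 and Hnf4a; 42.9%, against 11.0% of all genes) and none lower, while their sum stayed in the same range. Epcam, the epithelial adhesion molecule, lay at 445 to 601 (median 528) units early and at 1527 and 1398 on day 5 and 1666 and 1637 on day 7 (log2 difference 1.57 ± 0.10, adjusted p = 2.55e-05). Cdx1, a homeobox factor of intestinal identity, rose from 4.24 to 8.45 (median 7.05) units to 22.8 and 18.4 on day 5 and 26.1 and 29.6 on day 7 (log2 difference 1.73 ± 0.20, adjusted p = 0.000539). When libraries were scaled to equal sums, 3 epithelial markers were called lower and the same number, 6, higher. Tight junction genes were higher in 6 of 15 cases, beside 11.0% of all genes, in 3 without the day 7 library of M2 and in 2, near that share, without day 7. Cldn2, the pore-forming claudin of crypt cells, lay at 6.68 to 14.5 (median 9.42) units early and at 45.8 and 33.6 on day 5 and 37.3 and 36.4 on day 7 (log2 difference 1.89 ± 0.18, adjusted p = 0.000208). The late level of Cldn2 exceeded the early level in every library. Cldn23, a claudin of surface cells, was lower in level, at 3.58 to 11.7 (median 6.17) early and 9.33 and 15.2 on day 5 and 20.9 and 22.7 on day 7. Its call (log2 difference 1.18 ± 0.32, adjusted p = 0.0275) was lost without the day 7 library of M1 (0.0947), the day 2 library of M2 (0.061) or the day 7 library of M2 (0.0955), and after equal scaling (0.0525).

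Several of the largest rises fell outside the cell type lists. Cbr2, a carbonyl reductase, had the largest rise of the named genes, from 0 to 10.8 (median 3.5) units early to 75.1 and 83.3 on day 5 and 42.7 and 102 on day 7 (log2 difference 4.23 ± 0.65, adjusted p = 0.00183; chr11:120729489-120732114, minus strand). Fxyd4, a regulator of the sodium pump that is known from colon and kidney, lay at 1.47 to 12.2 (median 3.97) units early and at 42.4 and 93.6 on day 5 and 134 and 147 on day 7 (log2 difference 4.09 ± 0.53, adjusted p = 0.000825; chr6:117933559-117937692, minus strand). Trf, transferrin, lay at 1.21 to 39.2 (median 6.35) units early and at 89.9 and 102 on day 5 and 114 and 112 on day 7 (log2 difference 3.65 ± 0.78, adjusted p = 0.00872; 0.0929 without day 7). Tm4sf20 (log2 difference 3.28 ± 0.34, adjusted p = 0.000325), Lrmp (log2 difference 3.21 ± 0.49, adjusted p = 0.00183) and Duoxa2, the maturation factor of the hydrogen peroxide producing dual oxidase DUOX2 (log2 difference 3.06 ± 0.33, adjusted p = 0.000355), each had every late value above every early one. The protease gene Klk15 (log2 difference 3.59 ± 0.58, adjusted p = 0.00246; 0.0545 without day 7) and the trypsin inhibitor gene Spink1 (log2 difference 3.34 ± 0.62, adjusted p = 0.00455; 0.0856 without day 7) rested in part on day 7. Clca4b rose (log2 difference 3.62 ± 0.32, adjusted p = 0.000181) but belongs to a cluster of near-identical genes, so reads could have been divided among copies. Ttr, transthyretin, which was chosen after its values were seen, lay at 0 to 4.76 (median 0.729) units early and at 13.6 and 14.4 on day 5 and 8.85 and 16.4 on day 7 (log2 difference 2.76 ± 0.52, adjusted p = 0.00512; 0.0545 without day 7). Ctss, cathepsin S, also chosen in that way, rose from 0.438 to 6.58 (median 5) units to 20.4 and 22.9 on day 5 and 35 and 30.5 on day 7 (log2 difference 2.50 ± 0.40, adjusted p = 0.00228).

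Of 13 tested matrix collagens, 7 were higher late and none lower (53.8% higher, against 11.0% of all genes; median 0.99, against 0.025 over all genes), of 29 matrix glycoproteins and proteoglycans 13 were higher and none lower (44.8%; median 0.74), and of 19 basement membrane genes 7 were higher and none lower (36.8%; median 0.42). Of 30 matrix proteases, inhibitors and crosslinking enzymes, 15 were higher and 1, the urokinase receptor gene Plaur, was lower (median 0.69). The median collagen stood at 0.27, 0.24, 0.65 and 1.31 relative to day 1 on days 2, 3, 5 and 7. Without day 7, the counts of genes called higher dropped to 3, 2, 1 and 7, and without day 2 the glycoprotein count dropped to 3. Without the day 7 library of M2, 6 glycoproteins were called, and without that of M1, 8, while 4 collagens were called without either. The collagen count was also 4 without day 1 or day 2 and 11 without day 5, and the basement membrane count 4 without day 2.

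Col5a3, a fibrillar collagen of the type V group, lay at 23.6 to 36.1 (median 30.7) units early and at 40.7 and 57.7 on day 5 and 113 and 123 on day 7 (log2 difference 1.31 ± 0.27, adjusted p = 0.00723). Col12a1, a collagen that decorates fibrils, lay at 98.3 to 226 (median 146) units early and at 181 and 297 on day 5 and 403 and 566 on day 7 (log2 difference 1.12 ± 0.25, adjusted p = 0.0116; 0.125 without day 7). Col5a3 did not overlap between phases, whereas Col12a1 did. Col1a1, the main fibrillar collagen chain, lay at 147 to 521 (median 294) units early and at 289.8 and 592 on day 5 and 701 and 1120.0 on day 7, and its call (log2 difference 1.12 ± 0.34, adjusted p = 0.0432) was lost without the culture block (0.0587) and in 7 of 10 fits without 1 library, up to 0.143. Postn, periostin, a matrix protein of wounds, lay at 126 to 474 (median 215) units early and at 283 and 588 on day 5 and 956 and 1182 on day 7 (log2 difference 1.52 ± 0.33, adjusted p = 0.0097; 0.0668 without day 7). Fn1, fibronectin, rose from 319.7 to 639.7 (median 366) units to 761 and 767 on day 5 and 1269 and 1094 on day 7 (log2 difference 1.24 ± 0.21, adjusted p = 0.00308; 0.0563 without day 7). Igfbp5, which binds insulin-like growth factors, was highest on day 5 (60.5 and 55.4 on day 5 and 28.3 and 38.6 on day 7, after 10.7 to 36.5 (median 12.5) early; log2 difference 1.45 ± 0.34, adjusted p = 0.0133; 0.132 without day 5). In the basement membrane, Col7a1 of the anchoring fibrils (log2 difference 1.22 ± 0.27, adjusted p = 0.0115; 0.126 without day 7) and Lama2 (log2 difference 1.08 ± 0.21, adjusted p = 0.00553; 0.0832 without day 7) led the list.

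Mmp3, stromelysin, was the most abundant of the proteases named here, at 804 to 2869 (median 1751) units early and 2818 and 4454 on day 5 and 5308 and 6571 on day 7 (log2 difference 1.56 ± 0.27, adjusted p = 0.00307; 0.0512 without day 7). Mmp13, a collagenase, lay at 34.2 to 346 (median 80.9) units early and at 419.5 and 520.5 on day 5 and 739 and 939 on day 7, and its call (log2 difference 2.65 ± 0.64, adjusted p = 0.0158) was lost without the day 7 library of M1 (0.0526) or of M2 (0.0553). Timp3, an inhibitor of these proteases, rose from 3.7 to 10.5 (median 4.81) units to 18.7 and 23.5 on day 5 and 47.8 and 44.9 on day 7 (log2 difference 2.37 ± 0.32, adjusted p = 0.000994). Plaur lay at 85.7 to 154 (median 109.6) units early and at 70.8 and 71.8 on day 5 and 60.3 and 73.5 on day 7 (log2 difference -0.67 ± 0.16, adjusted p = 0.0171), and lost its call without the day 7 library of M1 (0.0612).

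Of 15 fibroblast markers, 5 were called higher (Thy1, Dcn, Col1a1, Col1a2 and Prrx1; 33.3%, against 11.0% of all genes; median 0.31), and Dcn, Col1a1 and Col1a2 are also in the matrix lists. The count was 3 without the day 7 library of M1 or of M2 or without day 1, 2 without day 2, 8 without day 5 and 1 without day 7. The median marker stood at -0.01 on day 5 and 0.62 on day 7 relative to day 1, where the median collagen stood at 0.65 and 1.31. In culture M1 the markers summed to 3879, 3548 and 3274 units on days 1, 2 and 3, to 3883 on day 5 and to 8153 on day 7. In culture M2 the sums were 4761, 4885, 4734, 5300 and 8816 units on the same days. Day 5 was thus close to the early days and day 7 was higher in both cultures. Of the 15 markers, 10 are in no matrix list, and these summed to 1316, 879 and 578 units early and to 758 and 1947 late in M1, and to 1657, 1080, 975, 1180 and 2193 units in M2. Of those 10, Thy1 and Prrx1 were called.

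Thy1, a surface glycoprotein of fibroblasts, lay at 10.8 to 73.2 (median 29.3) units early and at 42.8 and 117 on day 5 and 62 and 169 on day 7 (log2 difference 1.52 ± 0.22, adjusted p = 0.00151), with overlapping phases and no call without the culture block (adjusted p = 0.0645). Prrx1, a mesenchymal homeobox factor, lay at 27.7 to 62.1 (median 45.5) units early and at 58.5 and 85.2 on day 5 and 112 and 139.6 on day 7 (log2 difference 1.06 ± 0.20, adjusted p = 0.00539; 0.0514 without day 7). Dcn, the collagen-binding proteoglycan decorin, rose from 756 to 1239.9 (median 1086) units to 1493 and 1572 on day 5 and 2551 and 2164 on day 7 (log2 difference 0.91 ± 0.20, adjusted p = 0.00909; 0.102 without day 7). Pdgfra, the platelet-derived growth factor receptor that marks these cells, was not called (32.4 and 53.7 on day 5 and 66 and 83.2 on day 7, after 34.7 to 59.6 (median 44.9) units early; log2 difference 0.31 ± 0.19, adjusted p = 0.294). Smooth muscle and myofibroblast markers summed to 39.9 to 84.2 units early, to 56.4 and 84.6 on day 5, and to 275 and 335 on day 7. Tagln, transgelin, lay at 15.8 to 25.7 (median 20.8) units early and at 21.3 and 46.2 on day 5 and 132 and 156 on day 7, and its call (log2 difference 1.69 ± 0.46, adjusted p = 0.0254) was lost without the day 7 library of M1 (0.0822), the day 2 library of M2 (0.0572) or the day 7 library of M2 (0.0892). The part of the fibroblast markers in the matrix result was not tested.

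**Figure D3:**
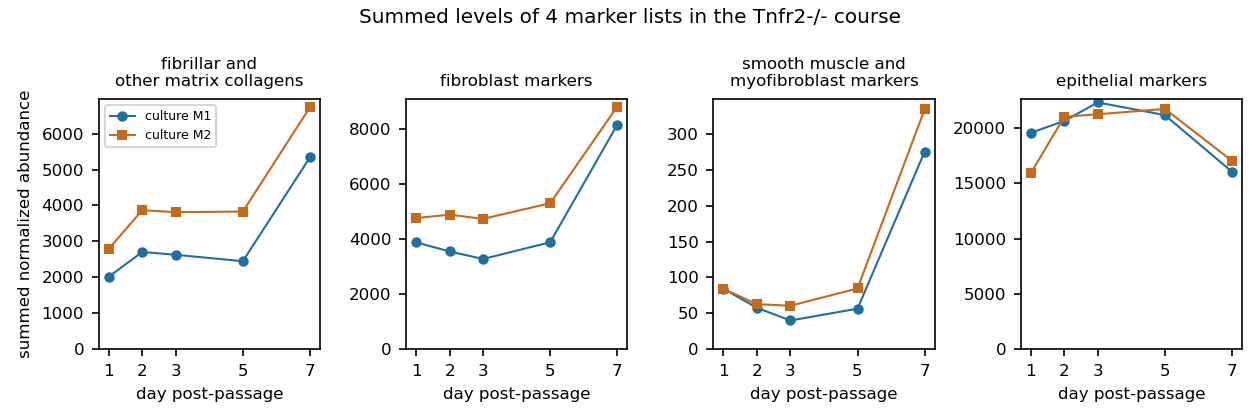
Summed level (units) of the matrix collagens, fibroblast markers, smooth muscle markers and epithelial markers by day after passage in Tnfr2-/- colonoids, with 1 line for each culture (M1 and M2). The collagen, fibroblast and smooth muscle sums are highest on day 7 in both cultures, while the epithelial sum on day 7 (16047 and 17036 units) is lower than on day 5.

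Growth factor genes linked to stroma and epithelium differed from list to list. Of 21 tested TGF-beta ligands, receptors and targets, 7 were higher (33.3%, against 11.0% of all genes) and 1 lower (4.76%, against 8.72%), with a median of 0.38, and 3 were higher without day 7. Inhba, the activin A subunit, lay at 38.6 to 75.4 (median 59.7) units early and at 173 and 181 on day 5 and 194 and 222 on day 7 (log2 difference 1.72 ± 0.19, adjusted p = 0.000438), with no overlap. Tgfb1 was not called (54.5 and 55.4 on day 5 and 53.8 and 60.4 on day 7, after 35.8 to 57.6 (median 40.1); log2 difference 0.39 ± 0.14, adjusted p = 0.0849), except without the day 1 library of M2 (0.0253). The receptor gene Tgfbr2 was lower (log2 difference -0.38 ± 0.10, adjusted p = 0.024), and its call was lost without the day 2 (0.052), day 5 (0.0664) or day 7 (0.0542) library of M1 or the day 5 library of M2 (0.06). Of 20 BMP and Wnt ligands and antagonists, 3 were higher, a share near the 11.0% of all genes, among them the BMP antagonist gene Grem1 and the ligand gene Wnt5a. The count was 5 without the day 1 library of M2 and 1 without the day 2 or day 3 library of M1 or the day 2 library of M2, and none was called without either day 7 library or without day 2, 3 or 7. Wnt5a lay at 28.3 to 98.7 (median 51.3) units early and at 85.2 and 104 on day 5 and 113 and 156 on day 7 (log2 difference 1.07 ± 0.27, adjusted p = 0.02; 0.0681 and 0.0689 without the day 7 library of M1 and M2). Of 10 tested EGF family genes, Ereg, Egfr and Erbb3 were higher, beside 11.0% of all genes, and 1 was without the day 2, 3, 5 or 7 library of M1 or the day 2 library of M2, without day 2 or day 3, or after equal scaling. Erbb3, a receptor of neuregulins, lay at 17.4 to 29.6 (median 20.7) units early and at 44 and 43.2 on day 5 and 42.1 and 41.7 on day 7 (log2 difference 0.95 ± 0.15, adjusted p = 0.00219). The ligand gene Ereg, at 152 to 268 (median 168) units early and 436 and 389.6 on day 5 and 270.0 and 234 on day 7, was called (log2 difference 0.74 ± 0.23, adjusted p = 0.0417) but not in 7 of 10 fits without 1 library, up to 0.124, nor after equal scaling (0.0818).

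The interferon-stimulated genes rose with a day 5 peak. Of 35 tested members, 26 were higher late and none lower (median 1.08), against 11.0% higher over all genes. The median member stood at -0.33, 0.24, 1.46 and 0.69 relative to day 1 on days 2, 3, 5 and 7. Without day 5 only 5 members were called, and without day 2 there were 15. Ifi44 lay at 2.43 to 14.2 (median 4.02) units early and at 54.3 and 53.6 on day 5 and 15.7 and 25.8 on day 7 (log2 difference 2.58 ± 0.47, adjusted p = 0.00426; 0.0501 without day 5). Ifit1, which binds viral RNA that lacks a cap methylation, lay at 2.06 to 7.62 (median 3.37) units early and at 30 and 28.4 on day 5 and 12.1 and 11.5 on day 7 (log2 difference 2.02 ± 0.40, adjusted p = 0.00597; 0.0682 without day 5). Isg15, a ubiquitin-like modifier, lay at 13.6 to 25.3 (median 17.2) units early and at 95.8 and 96 on day 5 and 23.9 and 36.4 on day 7 (log2 difference 1.51 ± 0.39, adjusted p = 0.0205). In these 3 genes both day 5 libraries were above both day 7 libraries, and for Isg15 a day 7 library fell inside the early range. The call of Isg15 was lost without the day 5 library of M1 (0.0625) or of M2 (0.0622). Ifi27l2a, a small mitochondrial membrane protein, lay at 0 to 7.24 (median 0.919) units early and at 11.7 and 9.29 on day 5 and 11.4 and 6.68 on day 7 (log2 difference 2.38 ± 0.57, adjusted p = 0.0157; 0.055 without the day 7 library of M1).

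Interferon-stimulated genes are known for the interferon-stimulated response element, of which the core GAAANNGAAA was searched on either strand. It was found in 15 of the 25 members with a RefSeq window (60.0%), against 3.68% of all tested genes and 6.08% of all genes called higher. The windows of Isg15 and Ifit1 are shown because each holds the element more than once, with the matches in capitals. The Isg15 window (chr4:156200769-156201068, minus strand; the gene spans chr4:156199424-156200818, minus strand) holds 3 overlapping matches from bases 173, 179 and 185. The Ifit1 window (chr19:34640639-34640938, plus strand; the gene spans chr19:34640871-34650009, plus strand) holds 2 matches on the opposite strand, from bases 147 and 166.
Isg15: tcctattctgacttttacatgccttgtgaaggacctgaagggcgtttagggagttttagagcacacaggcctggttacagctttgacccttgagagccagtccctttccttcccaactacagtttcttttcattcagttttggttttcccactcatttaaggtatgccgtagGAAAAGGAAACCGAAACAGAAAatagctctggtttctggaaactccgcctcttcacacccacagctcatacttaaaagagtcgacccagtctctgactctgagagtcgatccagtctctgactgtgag
Ifit1: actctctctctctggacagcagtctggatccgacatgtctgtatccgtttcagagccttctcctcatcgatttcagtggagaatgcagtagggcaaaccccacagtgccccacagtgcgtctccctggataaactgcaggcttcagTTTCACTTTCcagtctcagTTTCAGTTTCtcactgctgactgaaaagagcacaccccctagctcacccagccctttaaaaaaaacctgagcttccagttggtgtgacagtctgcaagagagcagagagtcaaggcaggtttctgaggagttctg
These matches describe the letters only.

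Antigen presentation genes were higher in 8 of 16 cases (B2m, H2-K1, H2-D1, H2-T22, H2-T23, Tapbp, Psmb10 and H2-Ab1; median 0.60), beside 11.0% of all genes, in 4 after equal scaling, in 5 without the day 7 library of M2 or without day 5, in 4 without day 2 or day 3 and in 2 without day 7. B2m, the light chain of class I molecules, lay at 506 to 971 (median 752) units early and at 1137 and 1099.5 on day 5 and 1716 and 1744 on day 7 (log2 difference 0.98 ± 0.19, adjusted p = 0.0064; 0.0892 without day 7). The class II gene H2-Ab1 lay at 2.5 to 6 (median 4.62) units early and at 5.98 and 12.4 on day 5 and 13 and 23.6 on day 7 (log2 difference 1.36 ± 0.29, adjusted p = 0.00828; 0.124 without day 7). Class I genes such as H2-K1 and H2-D1 are near copies of each other, so reads could have been divided between them.

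NF-kB feedback genes, cytokines and chemokines were higher in 19 of 29 cases (65.5%, against 11.0% of all genes), with none lower (median 0.87), and in 12 without day 2 and 9 without day 7. They included the inhibitors Nfkbia, Nfkbie and Tnfaip3, the chemokines Cxcl1, Cxcl2, Cxcl16, Cx3cl1 and Ccl20, and the cytokines Il6, Il11, Lif, Tnf, Il1a and Csf3. The sum over the whole list did not rise in this way, at 3941.5 to 6652.2 units early and 4176.7 to 6397.8 late. Il6 lay at 1.19 to 5.28 (median 3.91) units early and at 43.1 and 44.5 on day 5 and 30.4 and 24.4 on day 7 (log2 difference 3.04 ± 0.28, adjusted p = 0.000199; chr5:30013114-30019981, plus strand). Il11, a cytokine of the same family that signals through gp130, lay at 37.9 to 115 (median 53.4) units early and at 454 and 433 on day 5 and 239 and 343 on day 7 (log2 difference 2.56 ± 0.32, adjusted p = 0.000757; chr7:4772373-4782859, minus strand). The late values of both lay far above the early ones, and day 5 was above day 7 in both cultures. Tnf, the ligand of TNFR1 and TNFR2, lay at 6.6 to 12.3 (median 10.2) units early and at 34.2 and 28.3 on day 5 and 37 and 35.5 on day 7 (log2 difference 1.69 ± 0.16, adjusted p = 0.000208; chr17:35199381-35202007, minus strand). Tnfaip3, the A20 deubiquitinase that limits NF-kB, lay at 20.7 to 36.7 (median 27.1) units early and at 51.5 and 53.6 on day 5 and 47.8 and 62.6 on day 7 (log2 difference 0.97 ± 0.16, adjusted p = 0.00246). Neither gene overlapped between phases. The fibroblast marker sums given above were close to the early level on day 5, when Il6 and Il11 were highest, and their part in the cytokine result was not tested.

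Of 15 tested TNF receptor superfamily genes, 4 were higher (Tnfrsf1b, Tnfrsf9, Tnfrsf11b and Tnfrsf23; 26.7%, against 11.0% of all genes) and 1 lower (Tnfrsf10b; 6.67%, near the 8.72% of all genes), with a median of 0.02, and 2 were higher without day 7. Tnfrsf9, the co-stimulatory receptor 4-1BB, lay at 10.4 to 36.5 (median 27.2) units early and at 90.8 and 111 on day 5 and 134 and 190.4 on day 7 (log2 difference 2.38 ± 0.23, adjusted p = 0.000222). Tnfrsf11b, osteoprotegerin, a decoy receptor of RANKL, lay at 68.6 to 143 (median 93.9) units early and at 467 and 379 on day 5 and 414 and 365 on day 7 (log2 difference 2.06 ± 0.20, adjusted p = 0.000222). The late libraries were above all early ones in both. Tnfrsf1a, which encodes TNFR1, lay at 118 to 188 (median 150.3) units early and at 139.9 and 194 on day 5 and 105 and 123 on day 7 and was not called (log2 difference -0.11 ± 0.19, adjusted p = 0.731). Tnfrsf10b, a death receptor of TRAIL, was lower (log2 difference -0.41 ± 0.11, adjusted p = 0.0263), and not called in 5 of 10 fits without 1 library, up to 0.0884.

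Immediate early genes, which respond to growth factors and stress within minutes, were higher in 12 of 24 cases, beside 11.0% of all genes, with none lower (median 0.55), and in 9 without day 7. Dusp4, a phosphatase that ends MAP kinase signalling, lay at 42.3 to 55.9 (median 50.9) units early and at 129 and 131 on day 5 and 168 and 169 on day 7 (log2 difference 1.56 ± 0.12, adjusted p = 9.91e-05). The members called also included Jun, Junb, Egr1, Atf3, Ier3 and Zfp36. Egr2 was called (log2 difference 1.47 ± 0.46, adjusted p = 0.0452) at low levels, 0.41 to 9.08 (median 1.36) units early and 10 and 6.59 on day 5 and 5.5 and 4.61 on day 7, and lost the call in 8 of 10 fits without 1 library, up to 0.138, after equal scaling (0.0535) and without the culture block (0.0512). Of 18 p53 targets, 2 were higher (11.1%, near the 11.0% of all genes) and 4 lower (22.2%, against 8.72%), with 1 lower without the day 7 library of M1 or without day 2, 3 or 7, and 2 without the day 1 or day 2 library of M1 or the day 7 library of M2. Trp53inp1 rose from 27.6 to 42.5 (median 29.8) units to 91.4 and 58 on day 5 and 91.4 and 67.9 on day 7 (log2 difference 1.21 ± 0.16, adjusted p = 0.000958), and Bax, the pore-forming activator of apoptosis, fell from 223 to 308 (median 296) units to 167 and 176 on day 5 and 187 and 178 on day 7 (log2 difference -0.69 ± 0.10, adjusted p = 0.00175).

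Glycolysis and hypoxia genes were higher in 16 of 26 cases (61.5%, against 11.0% of all genes), with none lower (median 0.52). Under equal scaling 14 were called, without day 7 there were 11 and without day 2, day 5 or the day 7 library of M2 there were 10. The called members included the glucose transporter Slc2a1, hexokinase Hk2, the pyruvate dehydrogenase kinase Pdk1, Vegfa and carbonic anhydrase Car9. Bnip3, a mitochondrial receptor for mitophagy, lay at 40.2 to 76.5 (median 59.8) units early and at 186 and 224 on day 5 and 214 and 266 on day 7 (log2 difference 1.96 ± 0.17, adjusted p = 0.000181). Egln3, a prolyl hydroxylase that marks hypoxia-inducible factors for decay, lay at 46.7 to 94 (median 57.4) units early and at 242 and 263 on day 5 and 279 and 316 on day 7 (log2 difference 2.11 ± 0.20, adjusted p = 0.000208). Ankrd37, a known hypoxia target, lay at 5.52 to 20 (median 14) units early and at 45.7 and 58.9 on day 5 and 62.5 and 71.1 on day 7 (log2 difference 2.12 ± 0.27, adjusted p = 0.000757). Adm, the vasodilator peptide adrenomedullin, lay at 2.12 to 10.4 (median 5.04) units early and at 14.2 and 33.4 on day 5 and 48.7 and 86.3 on day 7 (log2 difference 2.73 ± 0.39, adjusted p = 0.00128). In each of the 4 the late libraries lay above every early one, and oxygen was not measured.

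Hypoxia-inducible factors bind the core ACGTG, which was found on either strand in 16 of the 24 windows of this list (66.7%), against 29.2% of all tested genes and 27.6% of all genes called higher. The window of Bnip3 (chr7:138909457-138909756, minus strand; the gene spans chr7:138890836-138909519, minus strand) is shown for the list because its late values lay well above its early ones in both cultures. Its matches from bases 144 and 143 lie on the 2 strands of the same palindromic word, printed in capitals.
Bnip3: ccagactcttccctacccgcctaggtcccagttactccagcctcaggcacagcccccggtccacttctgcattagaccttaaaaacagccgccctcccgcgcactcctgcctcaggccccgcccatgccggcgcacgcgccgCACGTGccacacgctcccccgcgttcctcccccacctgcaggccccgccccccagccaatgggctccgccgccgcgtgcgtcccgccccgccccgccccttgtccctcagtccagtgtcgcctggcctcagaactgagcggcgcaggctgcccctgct
ACGTG is short and is also contained in the E-box CACGTG of other factors.

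Of 26 nuclear genes of the respiratory chain, 4 were lower and none higher (Ndufv1, Cyc1, Cycs and Atp5o; 15.4% lower, against 8.72% of all genes; median -0.19). None was called without day 2 or day 7 or without the day 7 library of M1, 2 were without day 5 or the day 1 library of M1, and 1 was without the day 2 or day 5 library of M1 or the day 2 or day 7 library of M2. Of 27 tested genes of fatty acid oxidation, 5 were higher (18.5%, against 11.0%) and 2 lower (7.41%), with a median of 0.11, and 3 were higher without the day 7 library of M1 or of M2, without day 1 or after equal scaling, 2 without day 5 or day 7 and 1 without day 2. Acadl, the long-chain acyl-CoA dehydrogenase, lay at 91.1 to 149 (median 108) units early and at 230.2 and 224 on day 5 and 183 and 185 on day 7 (log2 difference 0.86 ± 0.15, adjusted p = 0.00309). Pparg, the nuclear receptor for fatty acids, lay at 25.1 to 39.2 (median 29.9) units early and at 66.4 and 55.9 on day 5 and 39.6 and 42.7 on day 7 (log2 difference 0.72 ± 0.17, adjusted p = 0.0127; 0.09 without day 5). Angptl4, a lipoprotein lipase inhibitor, was lower (log2 difference -0.71 ± 0.15, adjusted p = 0.00879; 0.074 without day 7). Only 1 fatty acid oxidation gene was lower without day 1, 2, 5 or 7, and as few as 1 without 1 library. Of 25 cholesterol synthesis genes, 1 was higher (a share below the 11.0% of all genes; none without either day 7 library) and 3 were lower, a share near the 8.72% of all genes (1 without the day 7 library of M2, none without day 2 or day 7, and 7 after equal scaling), among them the mevalonate kinase gene Mvk (log2 difference -0.52 ± 0.13, adjusted p = 0.0158), which was not called without the day 7 library of M2 (0.0571). Of 25 NRF2 targets and metallothioneins, 5 were higher and 1 lower, beside 11.0% and 8.72% of all genes, with 0 to 3 called higher without the day 1, 2, 3, 5 or 7 library of M1 or the day 1, 2 or 7 library of M2, and none without day 7. Of 31 lysosome genes, 4 were higher (Lamp2, Ctsh, Glb1 and Npc2; 12.9%, near the 11.0% of all genes), 9 without day 5 and 1 without day 7. Ctsh, cathepsin H, rose from 252 to 342 (median 294) units to 504 and 459 on day 5 and 429.7 and 432 on day 7 (log2 difference 0.62 ± 0.10, adjusted p = 0.00274), and Lamp2, a lysosomal membrane protein, from 155 to 228 (median 192) to 262 and 278 on day 5 and 331 and 307 on day 7 (log2 difference 0.63 ± 0.11, adjusted p = 0.00397; 0.0563 without day 7).

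Of 26 regenerative and YAP-linked genes, known from injured colon, 7 were higher (26.9%, against 11.0% of all genes) and 2 lower (7.69%, near the 8.72% of all genes), with a median of 0.16, and 4 were higher without day 2 and 3 without day 7. The lower count was 1 to 3 without 1 library, 1 without day 2 or day 3 and 0 without day 7. Ly6a, which encodes Sca-1, the usual marker of this state, lay at 2436 to 3635 (median 3195) units early and at 4427 and 4024 on day 5 and 3514 and 3492 on day 7, with overlapping ranges and no call (log2 difference 0.33 ± 0.13, adjusted p = 0.115). Clu, clusterin, a marker of revival stem cells, lay at 976 to 2258 (median 1138) units early and at 2344 and 2546 on day 5 and 2606 and 2826 on day 7 (log2 difference 0.99 ± 0.21, adjusted p = 0.00967; 0.103 without day 7). Spp1, osteopontin, lay at 88.7 to 224 (median 148) units early and at 1104 and 673 on day 5 and 431 and 368 on day 7, with day 5 above day 7 in both cultures (log2 difference 2.05 ± 0.32, adjusted p = 0.00222). Ly6d, a surface protein of the Ly6 family, lay at 89.1 to 310.0 (median 194) units early and at 424 and 443 on day 5 and 436 and 467 on day 7 (log2 difference 1.40 ± 0.31, adjusted p = 0.00994; 0.0972 without day 7). Ajuba, a LIM protein of the Hippo pathway, was lower (log2 difference -0.56 ± 0.12, adjusted p = 0.00933; 0.102 without day 7). Sprr2a2, a cornified envelope gene with near-identical neighbours, was the most abundant gene named, at 7224 to 34249 (median 16588) units early and 41444 and 40075 on day 5 and 20337 and 25359.5 on day 7, and was not called (log2 difference 0.93 ± 0.45, adjusted p = 0.177). Car2, a carbonic anhydrase of colonocytes, was not called either (180.3 and 184 on day 5 and 102 and 128 on day 7, after 76.8 to 263 (median 154); log2 difference -0.03 ± 0.35, adjusted p = 0.964).

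The cell type lists that the study itself used were counted in the same way, beside 11.0% of all genes higher and 8.72% lower. Of 45 tested genes of its first progenitor list, 35 were lower and 4 higher (median -0.98; 2 higher without the day 2 or day 5 library of M1 or of M2), whereas its other 2 progenitor lists had 21 of 47 and 19 of 41 higher, with 1 and 2 lower (medians 0.55 and 0.75). Its absorptive list had 27 of 43 higher and none lower (median 1.08), its deep secretory list 18 of 40 higher and 1 lower (0.69), its goblet list 8 of 15 higher and 1 lower (1.43), and its enteroendocrine list 5 of 16 higher (0.60; 3 without the day 2, 3 or 7 library of M1 or the day 2, 3, 5 or 7 library of M2). Its fetal intestine list was divided, with 64 of 292 higher and 47 lower (median 0.03), which is 21.9% and 16.1% of those tested, beside 11.0% and 8.72% of all genes, and 28 and 31 were lower without the day 7 library of M1 and M2. Without day 7, 15 genes of the first progenitor list and 14 of the fetal list were lower, and 13 and 11 of the other progenitor lists, 16 of the absorptive, 10 of the deep secretory, 4 of the goblet, 1 of the enteroendocrine and 33 of the fetal list were higher. Without day 2, 20 genes of the first progenitor list were lower, and 34 of the fetal list were higher and 20 lower. Of 12 genes that the study followed by name, 6 were higher (Tnfrsf1b, Ly6d, Muc2, Reg4, Lgr5 and Clu) and 2 lower (Mki67 and Myc), and since these were followed in these cultures, that count is not independent evidence.

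**Figure D4:**
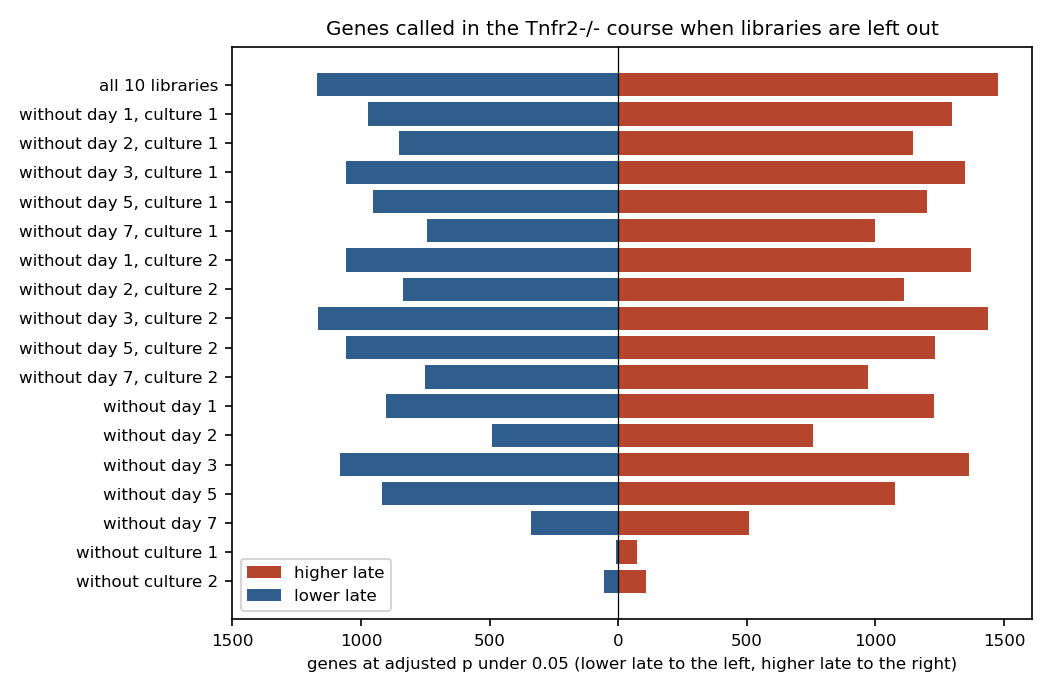
Number of genes called higher (right) and lower (left) late at an adjusted p under 0.05 in Tnfr2-/- colonoids with all 10 libraries and with each library, day or culture left out. Counts stay between 1723 and 2607 when 1 library is left out, and are 847 without day 7, 79 without culture M1 and 166 without culture M2.

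The wildtype course was then set beside the knockout course. Of 2639 genes called in the knockout that had a wildtype value, 2388 (90.5%) had the same sign in wildtype, against 70.3% of all genes. A test of the difference between the late effects of the genotypes, in 1 fit over all 20 libraries, called 0 of 13539 genes (0.00%) with limma, with 1398 at an unadjusted p under 0.05 and a lowest adjusted p of 0.134. An added fit, chosen after the data were seen, that gave every day its own term and blocked on culture called 163 genes (1.20%), 122 with a higher effect in the knockout and 41 with a lower one. Its calls varied between 19 and 326 when single libraries were left out.

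The list medians of both genotypes were close for division (mitosis -1.15 in the knockout and -0.78 in wildtype), ribosome biogenesis (-0.64 and -0.49), interferon-stimulated genes (1.08 and 1.16) and glycolysis and hypoxia (0.52 and 0.81). They were further apart, with the lower median in the knockout, for deep secretory (1.73 and 2.90), absorptive (1.44 and 2.57), goblet (0.90 and 1.86) and tuft cell genes (-0.35 and 0.48). The enteroendocrine list had the higher median in the knockout (1.23 and 0.88), and like the tuft list it held 4 tested genes. The knockout had the higher median for matrix collagens (0.99 and -0.19), matrix glycoproteins (0.74 and -0.17), matrix proteases (0.69 and -0.07), fibroblast markers (0.31 and -0.63), BMP and Wnt genes (0.35 and -0.57) and NF-kB genes (0.87 and 0.03). The differences between these medians were not tested. In the added fit, which called 1.20% of all genes, 7 of the NF-kB list (29 members tested in the knockout), 4 of the collagens (13), 4 of the proteases (30), 4 of the fibroblast markers (15), 3 of the glycoproteins (29) and 3 of the BMP and Wnt list (20) were called, each with the higher effect in the knockout. Of the absorptive (18) and the mitosis list (24), 2 each were called, all with the lower effect in the knockout, and of 3 glycolysis and hypoxia genes called (26), 2 had the higher effect. How these list counts change without single libraries was not tested, while the total varied as given above. The list medians of both genotypes and these list counts cover only members with a mean of at least 1 unit in the knockout. Members expressed mainly in wildtype could thus not be counted.

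Il6 lay at 0 to 2.96 units in the early and 0 to 3.95 units in the late wildtype libraries, against the late knockout values of 43.1 and 44.5 on day 5 and 30.4 and 24.4 on day 7. Its difference of effects was 3.38 on the log2 scale (unadjusted p = 5.41e-05, adjusted p = 0.173; 0.0128 in the added fit). Il11 lay at 21.6 to 260.2 units in the early and 6.24 to 438 units in the late wildtype libraries, with a difference of 3.85 (unadjusted p = 0.00749, adjusted p = 0.307; 0.0307 in the added fit). Dcn, which rose in the knockout, had a wildtype difference of -0.90 and a difference of effects of 1.81 (adjusted p = 0.234; 0.00677), and Mmp3 one of 1.88 (adjusted p = 0.31; 0.0111). Among the falls, Nup210 (wildtype 0.02) had a difference of effects of -1.83 (adjusted p = 0.194; 0.0179), Chtf18 (wildtype -0.42) of -1.49 (adjusted p = 0.205; 0.0325) and Cdc20 (wildtype -0.76) of -0.91 (adjusted p = 0.402; 0.0325). For none of these genes was the difference between genotypes called in the fit over early and late phases.

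**Figure D5:**
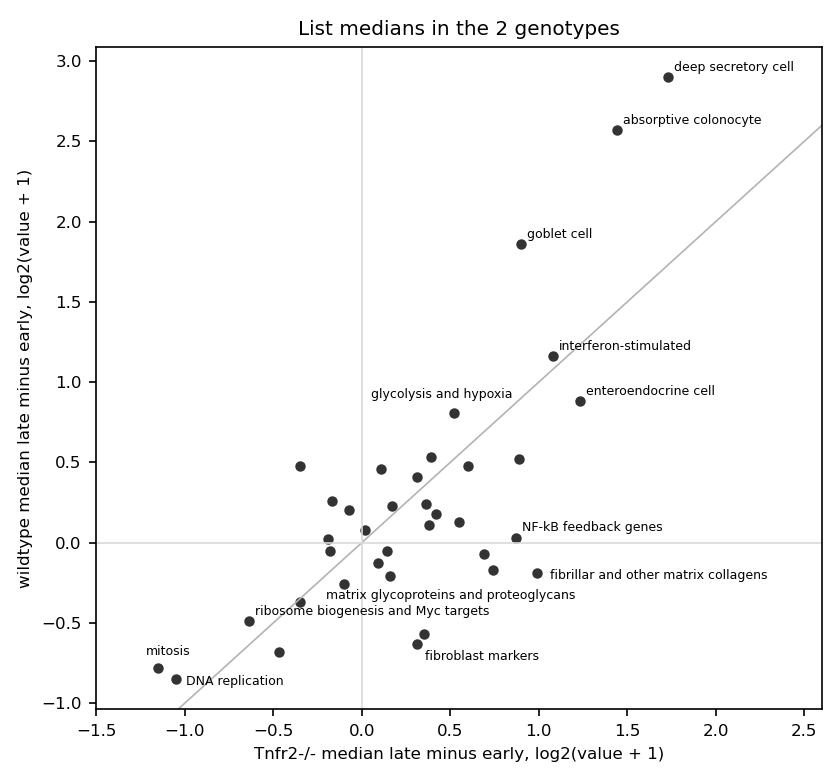
Median late minus early difference (log2) of each gene list in wildtype colonoids (vertical axis) against Tnfr2-/- colonoids (horizontal axis), 1 point for each list, with the line of equality. Cell division lists lie at the lower left. The absorptive, goblet, deep secretory and enteroendocrine lists lie at the upper right, and the tuft cell list (-0.35 and 0.48) at the upper left. The collagen (0.99 and -0.19), fibroblast (0.31 and -0.63) and NF-kB (0.87 and 0.03) lists lie below the line.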

How the data were processed

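Colonoid RNA was profiled in 20 mRNA libraries prepared with a stranded kit and read from 1 end. Per the submitters' processing notes, CASAVA, kallisto and sleuth were used with mm10. The strand setting of kallisto is not given in the sources used here. The deposited values are a signal per transcript that the authors normalized; from the tools named and the library sums, it is read here as TPM divided by a size factor of each library, which no source states outright. The authors' p-values, q-values and test statistics in the same table were not used. Read depth per library cannot be read from these values, so no counting interval is given.

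Repeated lines (781 of 113974) were dropped and transcripts summed per gene symbol (35240 symbols, 431 of them joining several Ensembl genes). Transcripts with no gene held at most 0.0989% of a library. Genes with a mean of at least 1 unit over the 10 knockout libraries were tested with limma 3.58.1 (R 4.3.3, mean-variance trend, Benjamini-Hochberg adjustment) on log2(value + 1), with culture as a block. The block rests on the labels, which number 2 cultures (M1 and M2) of each genotype on every day. Deviations of libraries of the same culture from their day means correlated at -0.054 to 0.075 (median 0.034), and the fitted correlation was -0.09. The difference between genotypes was tested over all 20 libraries. The fits were tested on simulated data.

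Named genes were the 15 largest rises and falls (mean of at least 10 in the higher phase, same sign in both cultures, no predicted genes), the 2 leading called members of each list in each direction (or the 2 most abundant where fewer were called) and genes the study followed, 120 in all; 19 more were chosen after their values were seen (Ifit1, Isg15, Ube2c, Bnip3, Egln3, Prrx1, Pdgfra, Dcn, Tnf, Tnfaip3, Mmp3, Fn1, Sprr2a2, Ttr, Ctss, Ccnb1, Agr2, Timp3 and Cnfn). The comparison, its 41 lists and the promoter motifs were chosen with earlier results of these data known. Some genes that the rule names are not reported here. Of the 139 genes named, 9 share exons with another gene on the same strand and 27 on the opposite strand in GENCODE vM21, so their reads may be divided. Gene coordinates are GRCm38, the build of mm10. Alternatives changed the block, pseudocount, filter, scaling and gene summing and left out each library, day and culture.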

Additional observations from a re-analysis of the deposited data

Results flagged for a closer look

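In 278 groups of early or late knockout libraries of the named genes, 22 (7.9%) held 1 library far from the others by Dixon's test, where chance gives about 1 in 20. Each is given in units with the range of the other libraries of its phase.

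Among early libraries, day 1 of M1 stood apart for Spink1 (6.804, others 0 to 2.27), Chtf18 (23.71, others 11.7 to 13.72), Igfbp5 (36.55, others 10.73 to 19.07) and Bax (223.3, others 294.3 to 307.6). Day 1 of M2 stood apart for Ifi27l2a (7.236, others 0 to 2.03). Day 2 of M1 stood apart for Sdf2l1 (65.29, others 37.39 to 46.13) and Ctss (0.4378, others 4.375 to 6.58), and day 2 of M2 for Mvk (49.03, others 32.53 to 36.16) and Egr2 (9.084, others 0.4105 to 2.095). Day 3 of M1 stood apart for Ang4 (3.152, others 0 to 0.9917). Day 3 of M2, the last early day, stood apart for Csf1r (5.554, others 2.19 to 3.383), Avil (9.645, others 3.187 to 4.92), Ifi44 (14.25, others 2.427 to 6.457) and Timp3 (10.51, others 3.696 to 5.517).

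Among late libraries, day 5 of M1 stood apart for the goblet gene Spink4 (46.62, others 66.92 to 69.04), Pcdhgc4 (2.844, others at or below 0.4121) and Ddit4l (2.076, others 0.8534 to 1.052). Day 5 of M2 stood apart for Cdkn2b (78.5, others 97.49 to 98.6) and Cnfn (1.51, others at 0). Day 7 of M1 stood apart for Avil (4.802, others 1.556 to 2.078) and Gsta3 (29.79, others 19.92 to 21.11), and day 7 of M2 for Tnfrsf1b, the deleted gene (11.45, others 7.594 to 8.077).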

How the results depend on the processing

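The 2647 genes called in the knockout (1477 higher, 1170 lower) became 2792 without the replicate block and 2548 with culture as a correlated block, and lay between 2223 and 3514 under the other changes of block, pseudocount, filter, scaling and summing. Scaling to equal sums gave 2570, of which 1082 were higher and 1488 lower. Without day 2, 1248 genes were called (756 higher, 492 lower), and without day 7, 847 (508 higher, 339 lower). Leaving out 1 library or 1 culture gave 79 to 2607 genes, 72 to 1439 of them higher and 7 to 1168 lower, where the lowest values are those without culture M1 and leave 1 mouse and 5 libraries. The 139 named genes kept their direction and side of the threshold in 133 cases with the correlated block, in 136 without the block, in 133 with equal sums and in 78 without day 7. The number was 31 without culture M1 and 43 without culture M2. Without the block the calls of Thy1, Col1a1 and Egr2 were lost.

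The difference between genotypes was called for 0 genes without the block and in most fits without 1 library, for 1 gene with a pseudocount of 10, and for 163 genes with each day as a factor and the replicate block, a fit added after seeing the data. Over the fits of either kind without 1 library it ranged from 0 to 326, and for the phase fit alone it reached 8, without the day 7 wildtype library of M1.

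Genes that changed sign were all uncalled. Lyz2 was 0.41 without day 5 and ranged from -0.40 to 0.07 without 1 library or culture. Vwf was -0.21, Dclk1 -0.28, Tnfrsf1a 0.16, Pdgfra -0.10 and Car2 0.30 without day 7. Car2 was also 0.00 without day 2 and 0.34 without day 3. Without 1 library or culture, Dclk1 ranged from 0.00 to 0.52, Tnfrsf1a from -0.41 to 0.20 and Car2 from -0.24 to 0.16. The causes of these changes were not tested. Low genes such as Ang4, Cnfn and, on early days, Muc2 should be read with care. Whether depth limits them cannot be told, since the deposited table does not hold the reads behind each value.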
